A study of Mus musculus with 28 samples.

Results

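The genes described here are 44 named parts of the antioxidant system of mouse cells, found in the 55536 genes of the count tables by their Ensembl identifiers and mouse symbols. They comprise NRF2 (Nfe2l2) and 2 of its regulators, NRF2 target enzymes, the glutathione and thioredoxin enzymes, the peroxiredoxins, the glutathione peroxidases and transferases, the superoxide dismutases, catalase and the enzymes that supply NADPH. No measured value entered the rule that names them, but the list was chosen with earlier results of these data known. They were measured by poly(A) RNA-seq in 28 libraries of interfollicular epidermis (IFE), the skin surface between hair follicles, from tail and back skin. Every mouse carried 1 CreER, a Cre recombinase that works only with tamoxifen, together with a Rosa tdTomato reporter, and the labels give the genotype as WT with those 2 alleles in brackets. Tamoxifen was given on 5 consecutive days from postnatal day 30 to 34, and skin was taken at postnatal day 49, 2 weeks later, in telogen, the resting phase of the hair cycle. Each harvest gave tdTomato-labelled cells (Slc1a3+, Aspm+, Dlx1+ or K14+, after the gene that drives CreER) and total IFE. Tail skin had 2 libraries per gate from each of the Slc1a3CreER, AspmCreER and Dlx1CreER lines. Back skin had 3 per gate from the Slc1a3 and Aspm lines and 2 from the K14 line. Labelled cells are those in which the driver was active during tamoxifen and their descendants, so they are a population defined by 1 promoter and not a purified cell type. The labels do not say which libraries came from separate animals, so p-values measure only the spread between these libraries.

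NRF2 is a transcription factor that its partner KEAP1 holds for destruction until oxidants or electrophiles release it, after which it binds antioxidant response elements in DNA and switches on detoxifying genes. Glutathione, a small thiol, and thioredoxin, a small protein, are the main reducing systems of the cell, and both are recharged with electrons from NADPH. Epidermis meets ultraviolet light, oxygen and chemicals directly, and its keratinocytes express most of these enzymes.

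Total counts per library ran between 7738262 and 37670589, with a median of 20193388, and between 14436 and 22500 genes had at least 1 count. Of the 44 members, 43 had enough counts to be tested among 17493 genes. The member left out was Sod3, the extracellular superoxide dismutase, which had 32 counts in all, was at 0 in 19 of 28 libraries and reached at most 0.579 counts per 1000000 counts of the library (CPM). All 28 libraries held the basal keratinocyte markers (Krt5, Krt14 and 3 others), at 60620 to 115900 CPM summed in tail libraries and 40960 to 67220 in back libraries. The defining markers of red blood cells stayed between 0.102 and 16.9 CPM summed and those of endothelium between 0.0612 and 10.8. The back total library of the Slc1a3 line, replicate 4, stood apart, with the fewest detected genes and correlations of 0.899 and 0.907 with its 2 replicates against at least 0.954 in all other replicate pairs. It enters every back value of total IFE below, and the effect of leaving it out is given with the comparisons. The members together took 0.532 to 0.775% of the counts in the 12 tail libraries (median 0.647%) and 0.420 to 0.667% in the 16 back libraries (median 0.575%).

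Per kilobase of the principal transcript, the scale used wherever genes are compared with each other, the 28-library mean level was highest for Gpx1, the cytosolic glutathione peroxidase, at 462 CPM per kb. Txnip, which binds and blocks thioredoxin, followed at 371, thioredoxin itself (Txn1) at 368 and the omega-class transferase Gsto1 at 217. At the other end stood Sod3 at 0.0170, the cystine importer Slc7a11 at 0.153, the secreted peroxidase Gpx3 at 0.233 and the theta-class transferase Gstt1 at 0.771 CPM per kb. All other values below are in CPM, set side by side only within a gene.

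The upstream sequences of 4 members are shown because they passed the tail and back test in all 3 cell populations described below and held, before their start site, the core of the antioxidant response element, TGACNNNGC. They are the RefSeq sequences (GRCm38.p6) of the 250 bases before the annotated start, 5′ to 3′ on the gene's strand, with the core in capitals. Gclm, the modifier subunit of an enzyme of glutathione synthesis, has it on the opposite strand with its first base 134 bases before the start (chr3:122245307-122245556, plus strand). Gstm5, a mu-class glutathione transferase, has it on the gene's strand 42 bases before the start (chr3:107895604-107895853, plus strand). Sod1, the cytosolic superoxide dismutase, has it on the opposite strand 56 bases before the start (chr16:90220512-90220761, plus strand). G6pdx, which makes NADPH in the first step of the pentose phosphate pathway, has it on the opposite strand 57 bases before the start (chrX:74428881-74429130, minus strand).
Gclm: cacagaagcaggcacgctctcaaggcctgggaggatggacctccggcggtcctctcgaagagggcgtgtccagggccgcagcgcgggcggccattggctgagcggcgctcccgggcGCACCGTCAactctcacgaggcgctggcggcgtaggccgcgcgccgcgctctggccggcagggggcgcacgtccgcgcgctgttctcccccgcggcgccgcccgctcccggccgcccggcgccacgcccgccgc
Gstm5: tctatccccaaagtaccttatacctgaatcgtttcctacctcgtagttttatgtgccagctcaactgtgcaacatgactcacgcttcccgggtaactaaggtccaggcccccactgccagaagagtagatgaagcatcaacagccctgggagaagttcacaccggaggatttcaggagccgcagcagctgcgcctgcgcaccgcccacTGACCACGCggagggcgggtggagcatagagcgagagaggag
Sod1: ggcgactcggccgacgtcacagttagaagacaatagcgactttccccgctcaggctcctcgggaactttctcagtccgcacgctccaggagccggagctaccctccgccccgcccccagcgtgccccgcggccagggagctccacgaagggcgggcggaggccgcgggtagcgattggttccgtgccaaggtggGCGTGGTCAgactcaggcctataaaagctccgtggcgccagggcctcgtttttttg
G6pdx: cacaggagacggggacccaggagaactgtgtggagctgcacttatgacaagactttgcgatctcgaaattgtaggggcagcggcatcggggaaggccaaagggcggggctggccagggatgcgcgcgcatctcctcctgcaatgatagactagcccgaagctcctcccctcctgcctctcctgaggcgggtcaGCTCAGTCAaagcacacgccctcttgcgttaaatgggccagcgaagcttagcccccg
Of the members, 36 had a promoter entry, covering 250 bases before to 50 after the start, and 10 of these genes (27.8%) held the core on either strand, against 3781 of 27025 genes in the whole table (14%). The other 6 were Nfe2l2, Txnrd1, Srxn1, Prdx1, Pgd and Me1. Of these, Srxn1 and Pgd were also called higher in tail in all 3 populations, and Me1 lower, and their sequences are not shown. Without an entry were Hmox1, Aldh3a1, Gclc, Gsr, Prdx6, Gsta4, Abcc1 and Sod3. A match of these letters is a description of the sequence and not evidence of binding.

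The first comparison asked how the antioxidant genes of tail epidermis differ from those of back epidermis. In total IFE of the Slc1a3 and Aspm lines (4 tail libraries and 6 back libraries), 27 of the 43 members tested were higher in tail and 6 were lower, by edgeR's quasi-likelihood test with Benjamini-Hochberg adjusted p under 0.05 over all genes. Site moved much of the transcriptome: 46.2% of all genes passed, 22.5% higher and 23.7% lower. Against that background 76.7% of the members passed, and their median log2 fold change was 0.58 against -0.03 for all genes. That background spans genes of every length and level, and shares by transcript length are given below. All 4 quinone and haem enzymes and all 5 genes of glutathione synthesis and cystine import were higher in tail, though the calls of Hmox1 and Gsr were each lost with certain single libraries left out, while the peroxiredoxins (3 of 6) and glutathione peroxidases (2 of 5) passed in part. Slc1a3+ cells (2 tail and 3 back libraries) gave 27 members higher and 6 lower, where 40.6% of all genes passed (19% higher, 21.6% lower), and 21 in all without tail Slc1a3+ replicate 1. Aspm+ cells (2 and 3 libraries) gave 17 higher and 4 lower, where 27.2% of all genes passed (12.7% higher, 14.5% lower). Leaving out replicate 4 of the back Slc1a3 total gave 27 higher and 7 lower in total IFE, the added gene being the mitochondrial dismutase Sod2. The 33 calls made with that library were all made without it in the same direction, and their log2 fold changes moved by at most 0.43 (Gsta4, 3.60 without it) and otherwise by at most 0.24.

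The same direction was called in all 3 populations for 17 members that were higher in tail (39.5% of those tested, against 9.40% of all genes) and for 3 that were lower (6.98% against 11.5%). Those higher were Nqo1, Cbr3, Gclm, Gss, Txn1, Srxn1, Prdx4, Prdx5, Gpx2, Gsta4, Gstm2, Gstm5, Gsto1, Sod1, G6pdx, Pgd and Tkt. Those lower were Txnip, Cat and Me1. Nfe2l2, Sod2 and Gpx3 passed in none, and no member was called in opposite directions. For 12 members all 12 tail libraries, of either gate and every line, lay above all 16 back libraries, where 5.92% of all genes did so. The reverse held for Me1 alone, where 5.77% of all genes did so.

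**Figure D1:**
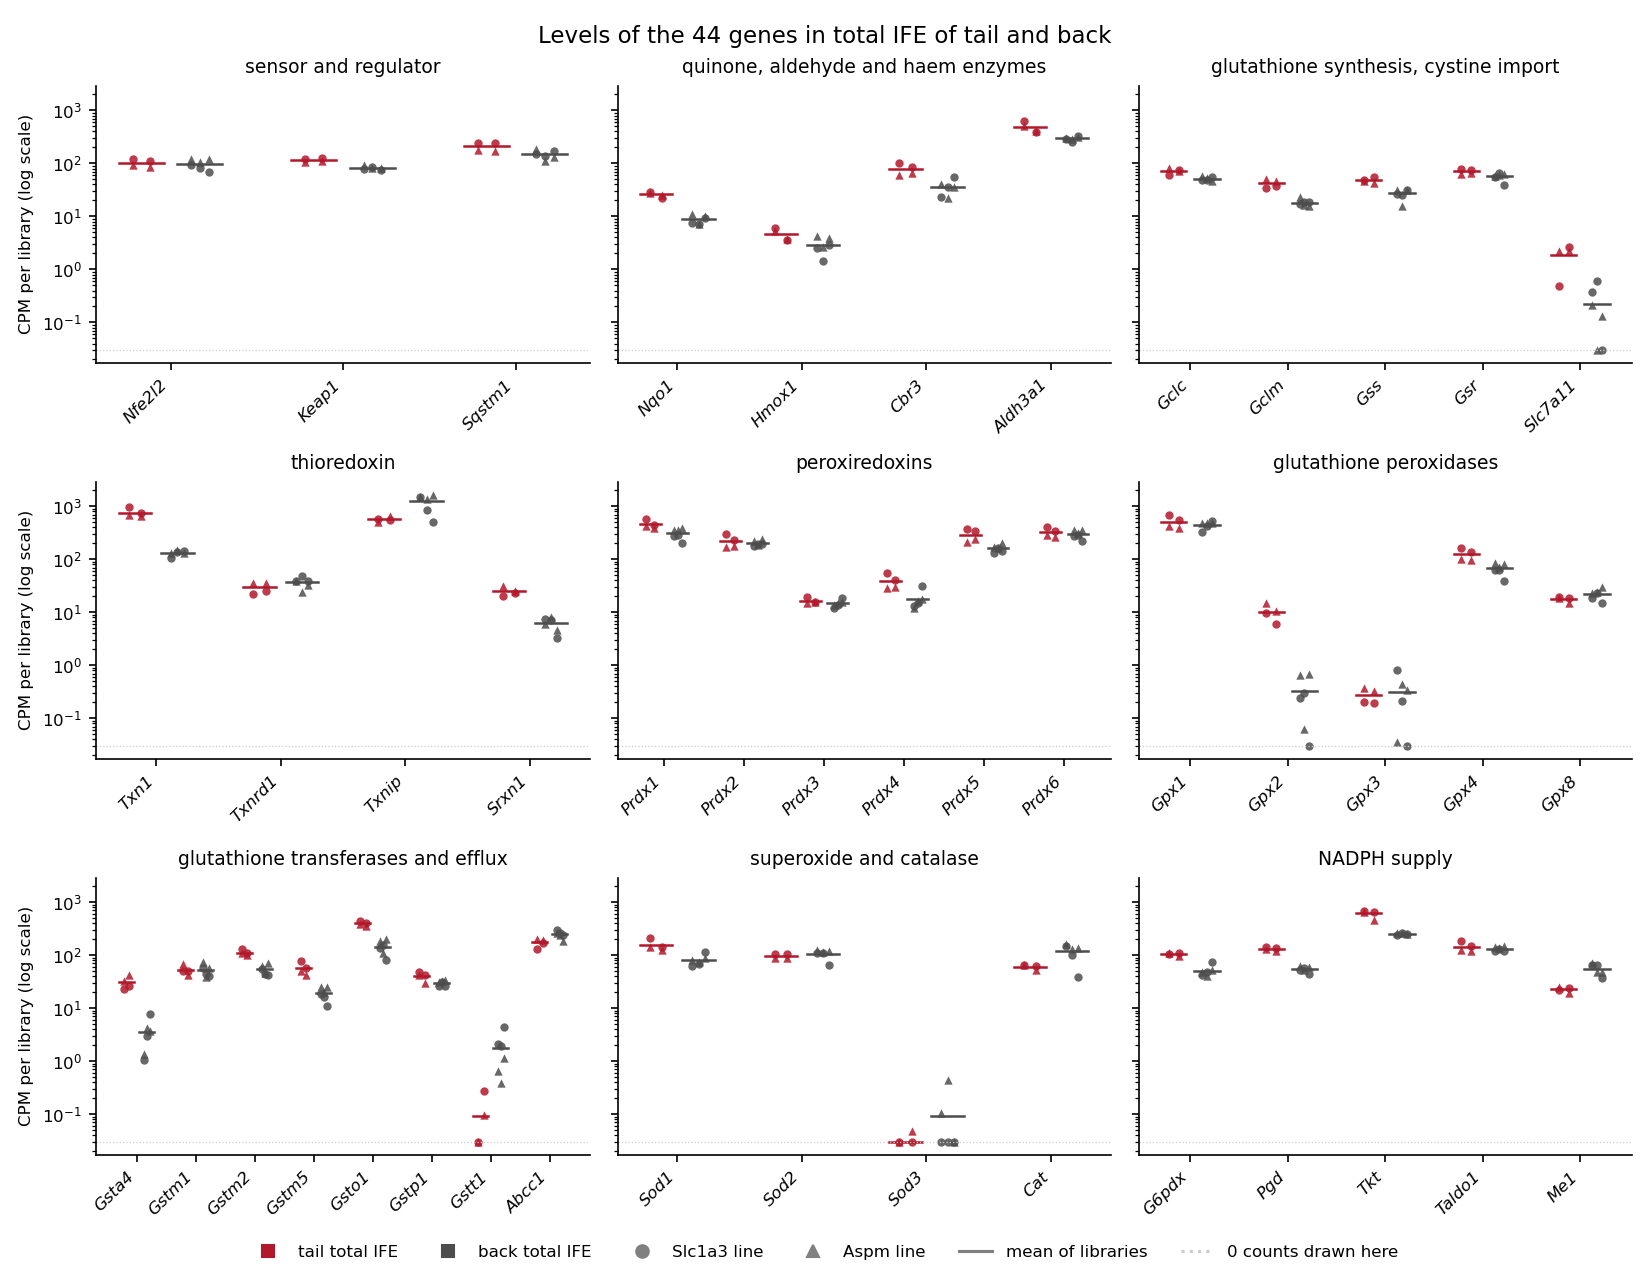
CPM on a log axis of all 44 members in total IFE of the Slc1a3 (circles) and Aspm (triangles) lines, one panel per role, with the 4 tail totals left of the 6 back totals, each point a library and each bar the mean; the dotted line marks libraries with 0 counts. Txn1 sits between 652 and 987 CPM in tail totals and between 106 and 151 CPM in back totals, while Nfe2l2 overlaps between the sites.

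Among the sensors and regulators, the transcript of NRF2 itself did not pass in any population. Nfe2l2 had 122, 112, 93.7 and 87.0 CPM in the tail totals, against a lowest of 68.5, a median of 102 and a highest of 120 CPM in the 6 back totals. The 2 sites overlapped, and the log2 fold change was 0.07 (SE 0.12, edgeR adjusted p = 0.645). Keap1, the sensor that marks NRF2 for degradation, had 121, 128, 107 and 111 CPM in the tail totals, against 73.9, 82.4 and 95.1 CPM (lowest, median, highest) in back. All 4 tail totals were above the 6 back totals, and Keap1 was 0.49 higher on the log2 scale (SE 0.09, edgeR adjusted p = 1.0e-04). It also passed in Slc1a3+ cells (0.57) but not in Aspm+ cells (0.19, edgeR adjusted p = 0.301). Sqstm1, the autophagy receptor p62 that can bind KEAP1, averaged 209 CPM in tail totals and 149 in back totals, with overlap, and passed at 0.47 (SE 0.14, edgeR adjusted p = 0.00704). Of its 50-base transcript words, 15.5% also occur in another gene, Mrnip, so part of its reads cannot be assigned.

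The quinone and haem enzymes were all higher in tail totals. Nqo1 reduces quinones by 2 electrons at once and is the textbook NRF2 target. It had 29.4, 22.3, 27.6 and 24.8 CPM in the tail totals, against 7.18, 8.41 and 11.2 CPM (lowest, median, highest) in back. No tail library of any kind fell below 15.4 CPM and no back library exceeded 11.2, and the log2 fold change in total IFE was 1.57 (SE 0.18, edgeR adjusted p = 2.4e-07), with 1.81 in Slc1a3+ and 1.58 in Aspm+ cells. Cbr3, a carbonyl reductase, averaged 78.2 CPM in tail totals and 36.0 in back totals, without overlap (log2 fold change 1.10, SE 0.21, edgeR adjusted p = 0.000117). Aldh3a1, an aldehyde dehydrogenase that clears lipid aldehydes, had 623, 396, 499 and 406 CPM in the tail totals, against 249, 297 and 323 CPM in back. Its total IFE groups did not overlap (0.70, SE 0.19, edgeR adjusted p = 0.00479), but in Slc1a3+ cells it averaged 187 CPM in tail and 177 in back and did not pass (0.08, edgeR adjusted p = 0.85). Hmox1, which degrades haem, was low, at 4.68 CPM in tail totals and 2.94 in back totals, and passed narrowly with overlap (0.71, SE 0.29, edgeR adjusted p = 0.0487). Its call was lost in 14 of 19 alternative fits, 7 of them with 1 library left out, and its log2 fold change was 0.19 at the lowest.

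The enzymes of glutathione synthesis were higher in tail totals. Gclm had 34.1, 37.0, 51.2 and 45.6 CPM in the tail totals, against 15.5, 17.9 and 22.7 CPM (lowest, median, highest) in back. Every tail library lay above every back library, and the log2 fold change was 1.19 (SE 0.17, edgeR adjusted p = 4.8e-06). The catalytic subunit Gclc differed less, averaging 72.3 CPM in tail totals and 51.6 in back totals (0.49, SE 0.11, edgeR adjusted p = 0.000995). Gclc passed in neither labelled population, at 0.07 in Slc1a3+ and 0.25 in Aspm+ cells. Gss, which completes glutathione, averaged 48.1 CPM in tail totals and 27.1 in back totals (0.82, SE 0.16, edgeR adjusted p = 0.000139) and reached 1.42 in Slc1a3+ cells. Gsr, which regenerates reduced glutathione, had 76.7, 76.2, 63.3 and 65.7 CPM in the tail totals, against 39.8, 58.2 and 66.0 CPM in back, with overlap (0.31, SE 0.11, edgeR adjusted p = 0.0207). Its call was lost in 8 of 19 alternative fits, among them those without any 1 of the 4 tail totals. Slc7a11, which imports cystine for glutathione, was near the detection limit, with 173 counts in the 4 tail totals and 34 in the 6 back totals. Its CPM were 0.482, 2.67, 2.21 and 2.20 in the tail totals, against 0, 0.171 and 0.598 in back, and 1 tail library overlapped (log2 fold change 3.09, SE 0.70, edgeR adjusted p = 0.000951).

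In the thioredoxin system the protein and its inhibitor moved in opposite directions. Txn1 (chr4:57943373-57956411) had 987, 740, 671 and 652 CPM in the tail totals, against 106, 133 and 151 CPM (lowest, median, highest) in back. It had the lowest adjusted p of the members in total IFE, with a log2 fold change of 2.50 (SE 0.14, edgeR adjusted p = 1.1e-12), 2.80 in Slc1a3+ and 2.42 in Aspm+ cells. Srxn1, the sulfiredoxin that repairs over-oxidised peroxiredoxins, had 20.0, 22.7, 31.4 and 25.5 CPM in the tail totals, against 3.32, 6.63 and 8.28 CPM in back. All tail libraries were above all back libraries for both genes, and Srxn1 was 1.98 higher in total IFE (SE 0.21, edgeR adjusted p = 5.7e-08). Txnip had 573, 563, 496 and 647 CPM in the tail totals, against 510, 1440 and 1670 CPM in back, where the lowest value was the library that stood apart. Of its transcript words 15.7% are shared with Gm15441. It was lower in tail by a log2 fold change of -1.08 (SE 0.31, edgeR adjusted p = 0.00749), or -1.23 without that library (edgeR adjusted p = 0.0031), and the groups did not overlap in Slc1a3+ (-1.23) or Aspm+ cells (-1.79). Txnrd1, which reduces thioredoxin in the cytosol, averaged 20.8 CPM in tail Slc1a3+ cells and 44 in back Slc1a3+ cells, without overlap (-1.08, SE 0.18, edgeR adjusted p = 6.2e-05). In total IFE the Txnrd1 groups overlapped and the difference was -0.32 (SE 0.13, edgeR adjusted p = 0.0434), and in Aspm+ cells it was -0.01. The call in total IFE was lost in 11 of 19 alternative fits, among them those without any 1 of the 4 tail totals, with an edgeR adjusted p of up to 0.248.

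The peroxiredoxins, most of which use thioredoxin to remove hydrogen peroxide, were higher in tail totals for Prdx1, Prdx4 and Prdx5. Prdx5, a mitochondrial and peroxisomal form, had 378, 337, 211 and 246 CPM in the tail totals, against 134, 162 and 204 CPM (lowest, median, highest) in back. The groups did not overlap, and the log2 fold change was 0.82 (SE 0.13, edgeR adjusted p = 1.1e-05). Prdx4, the form of the endoplasmic reticulum, averaged 38.5 CPM in tail totals and 17.6 in back totals, with overlap (1.12, SE 0.24, edgeR adjusted p = 0.000467). Prdx1, the abundant cytosolic form, averaged 464 CPM in tail totals and 313 in back totals, also with overlap (0.58, SE 0.13, edgeR adjusted p = 0.000658). With the Dlx1 totals added to tail and the K14 totals to back, Prdx1 did not pass (0.17, edgeR adjusted p = 0.20). Prdx2, Prdx3 and Prdx6 had differences of 0.09 to 0.15 in total IFE and did not pass. In Slc1a3+ cells all 6 peroxiredoxins passed, at 0.42 (Prdx6) to 1.70 (Prdx4), with every tail library above the back libraries. Of the transcript words of Prdx5, 15.5% are shared with Trmt112.

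The glutathione peroxidases differed from member to member. Gpx2, best known from the lining of the gut (chr12:76792333-76795554), had 9.70, 6.02, 14.7 and 10.7 CPM in the tail totals, against 0, 0.270 and 0.698 CPM (lowest, median, highest) in back. That was 863 counts in the 4 tail totals and 50 in the 6 back totals, without overlap in any population (log2 fold change 4.89, SE 0.68, edgeR adjusted p = 2.9e-06). Gpx4, which reduces lipid peroxides in membranes, averaged 125 CPM in tail totals and 67.7 in back totals, without overlap (0.87, SE 0.14, edgeR adjusted p = 2.6e-05), although 34.7% of its transcript words are shared with 2 other genes, a pseudogene of its own among them. Gpx1 had 676, 554, 425 and 390 CPM in the tail totals, against 327, 478 and 528 CPM in back. The Gpx1 groups overlapped (0.15, SE 0.13, edgeR adjusted p = 0.355), while in Slc1a3+ cells Gpx1 was higher in tail by 0.61 (edgeR adjusted p = 0.00756). Gpx8, a form of the endoplasmic reticulum, was lower in tail Aspm+ cells, at 15.1 CPM against 34.1 in back Aspm+ cells, without overlap (-1.17, SE 0.28, edgeR adjusted p = 0.00277). Gpx3 was at most 0.916 CPM in any library and did not pass.

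Of the 8 transferase and efflux genes, 5 were higher and 2 lower in tail totals. Gsta4, which conjugates the lipid aldehyde 4-hydroxynonenal (chr9:78182774-78209349), had 23.0, 25.8, 32.1 and 42.0 CPM in the tail totals, against 1.06, 3.37 and 7.91 CPM (lowest, median, highest) in back. Gsto1 had 452, 407, 392 and 361 CPM in the tail totals, against 81.8, 148 and 204 CPM in back. For both genes no tail library overlapped any back library, and the log2 fold changes were 3.17 (SE 0.38, edgeR adjusted p = 3.3e-07) for Gsta4 and 1.48 (SE 0.18, edgeR adjusted p = 3.4e-07) for Gsto1. Gstm5 had 78.5, 56.4, 50.4 and 42.6 CPM in the tail totals, against 11.2, 19.6 and 25 CPM in back, without overlap (1.55, SE 0.19, edgeR adjusted p = 5.7e-07). Gstm2, another mu-class enzyme, averaged 112 CPM in tail totals and 53.9 in back totals (1.06, SE 0.13, edgeR adjusted p = 3.3e-07), while its neighbour Gstm1 averaged 52.5 in tail totals and 52.4 in back totals. Of the transcript words of Gstm1, 18.9% occur in other genes, and of those of Gstm5, 9.4%. Gstp1, the pi-class enzyme, averaged 40.8 CPM in tail totals and 30.5 in back totals with overlap (0.41, edgeR adjusted p = 0.0195), and 33.7% of its transcript words are shared with Gstp2 and a pseudogene. Gstt1 had 9 counts in the 4 tail totals and 193 in the 6 back totals, a depth-adjusted ratio of 0.0705 (95% exact interval 0.0317 to 0.137, counting error only). It had 0, 0.275, 0 and 0.0957 CPM in the tail totals, against 0.382, 1.55 and 4.46 CPM in back, without overlap (edgeR adjusted p = 0.00236). Abcc1, which exports glutathione conjugates, averaged 175 CPM in tail totals and 249 in back totals, with overlap (-0.51, SE 0.13, edgeR adjusted p = 0.00271).

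Sod1 and catalase, which act in succession on superoxide and hydrogen peroxide, went in opposite directions. Sod1 had 215, 144, 144 and 124 CPM in the tail totals, against 63.2, 77.7 and 116 CPM (lowest, median, highest) in back. Its groups did not overlap (log2 fold change 0.92, SE 0.16, edgeR adjusted p = 6.5e-05). Cat had 65.3, 61.6, 66.2 and 52.2 CPM in the tail totals, against 38.6, 134 and 165 CPM in back. The lowest back value was the library that stood apart. With it the difference was -0.96 (SE 0.21, edgeR adjusted p = 0.000608) and without it -1.14. In labelled cells the Cat groups did not overlap, with -0.99 in Slc1a3+ and -1.19 in Aspm+ cells. Sod2 averaged 97.5 CPM in tail totals and 108 in back totals, did not pass (-0.14, edgeR adjusted p = 0.324), and passed at -0.25 without that library (edgeR adjusted p = 0.0126).

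Of the NADPH enzymes, Pgd, Tkt and G6pdx of the pentose phosphate pathway were higher in tail and malic enzyme was lower. Pgd, the second NADPH-producing step of the pathway, had 143, 139, 130 and 120 CPM in the tail totals, against 45, 55 and 62.5 CPM (lowest, median, highest) in back. Tkt, the transketolase that links the pathway to glycolysis, had 691, 646, 655 and 468 CPM in the tail totals, against 242, 255 and 266 CPM in back. G6pdx had 106, 108, 108 and 95.3 CPM in the tail totals, against 40.1, 48.5 and 73.7 CPM in back. For all 3 genes every tail library lay above every back library, with log2 fold changes in total IFE of 1.27 for Pgd (SE 0.10, edgeR adjusted p = 6.6e-10), 1.26 for Tkt (SE 0.11, edgeR adjusted p = 9.3e-10) and 1.03 for G6pdx (SE 0.13, edgeR adjusted p = 8.6e-07). Me1, the cytosolic malic enzyme that makes NADPH from malate, had 22.2, 24.1, 25.1 and 19.1 CPM in the tail totals, against 37.5, 57.2 and 70.1 CPM in back. Every tail library lay below every back library, and the difference was -1.31 (SE 0.18, edgeR adjusted p = 2.7e-06). Of its transcript words, 28.3% are shared with 3 other genes, and 16.9% of those of G6pdx with other genes including Ikbkg. Taldo1, a transaldolase of the pentose phosphate pathway, had 0.11 in total IFE (edgeR adjusted p = 0.364) and passed in Slc1a3+ cells at 0.53 (edgeR adjusted p = 0.00313). In Aspm+ cells it was -0.16 (edgeR adjusted p = 0.432).

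**Figure D2:**
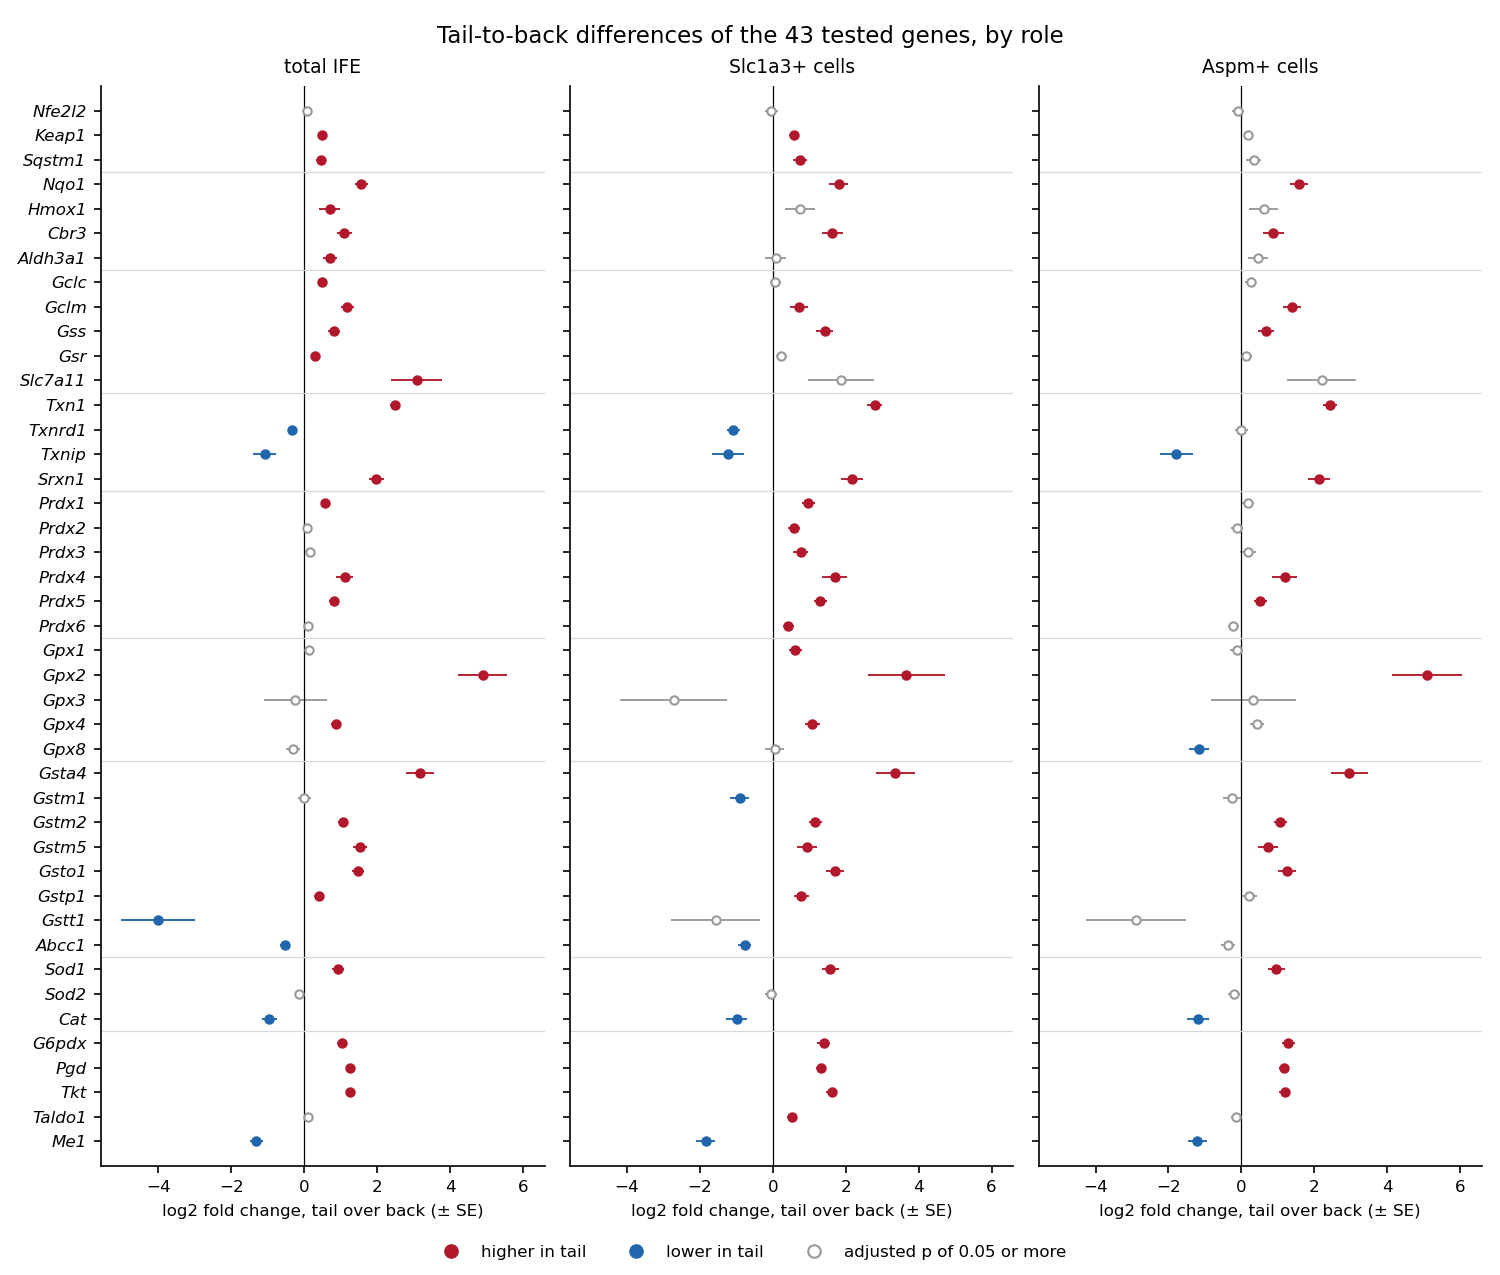
Log2 fold change between tail and back with its standard error for the 43 tested members, grouped by role, in total IFE, Slc1a3+ cells and Aspm+ cells; filled points passed edgeR's test. Most points lie to the right of 0, with Txnip, Cat and Me1 to its left in all 3 populations.

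The same sign in all 3 populations is not independent evidence, since the labelled cells and the total IFE came from the same harvests. Whether a site difference was larger in labelled cells than in total IFE was tested as an interaction. No member passed edgeR's test in the Slc1a3 line (0 by DESeq2, 0.0915% of all genes passed) or the Aspm line (0 by DESeq2, 0% of all genes passed). At an unadjusted p under 0.05 the Slc1a3 line had 3 of 43 members and 756 of 17493 genes. The Aspm line had 0 members and 349 genes. Adding a term for each harvest made 1 member pass in the Slc1a3 line, Gstm5 at -1.14 (edgeR adjusted p = 0.048).

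Tail and back libraries also differed by transcript length. Among 9160 tested protein-coding genes over 10 CPM, the median log2 fold change in total IFE was 0.33 for transcripts under 1500 bases and -0.43 for those over 6000, and in Slc1a3+ cells 0.69 and -0.75. Of those under 1500 bases, 46.8% were called higher in tail in total IFE, 57.9% in Slc1a3+ cells and 19.9% in Aspm+ cells. Of those over 6000 bases, 10%, 5.43% and 6.99% were called higher. The members are short, with a median of 1671 bases against 3116 for these genes, and 18 of the 44 are under 1500 bases. With the length trend removed, an adjustment chosen after seeing the data, 25 members were higher and 5 lower in total IFE, 23 and 5 in Slc1a3+ cells and 18 and 5 in Aspm+ cells. In total IFE 29 calls were shared with the unadjusted test; Hmox1, Txnrd1, Gstp1 and Abcc1 were lost and Gpx8 was gained as lower. In Slc1a3+ cells the calls of Prdx2, Prdx3, Gpx1, Gstm5, Gstp1, Abcc1 and Taldo1 were lost, and Slc7a11 and Sod2 were gained as higher. In Aspm+ cells Slc7a11 was gained as higher and Taldo1 as lower (-0.29, edgeR adjusted p = 0.046). The part that length plays in the other differences was not tested further.

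**Figure D3:**
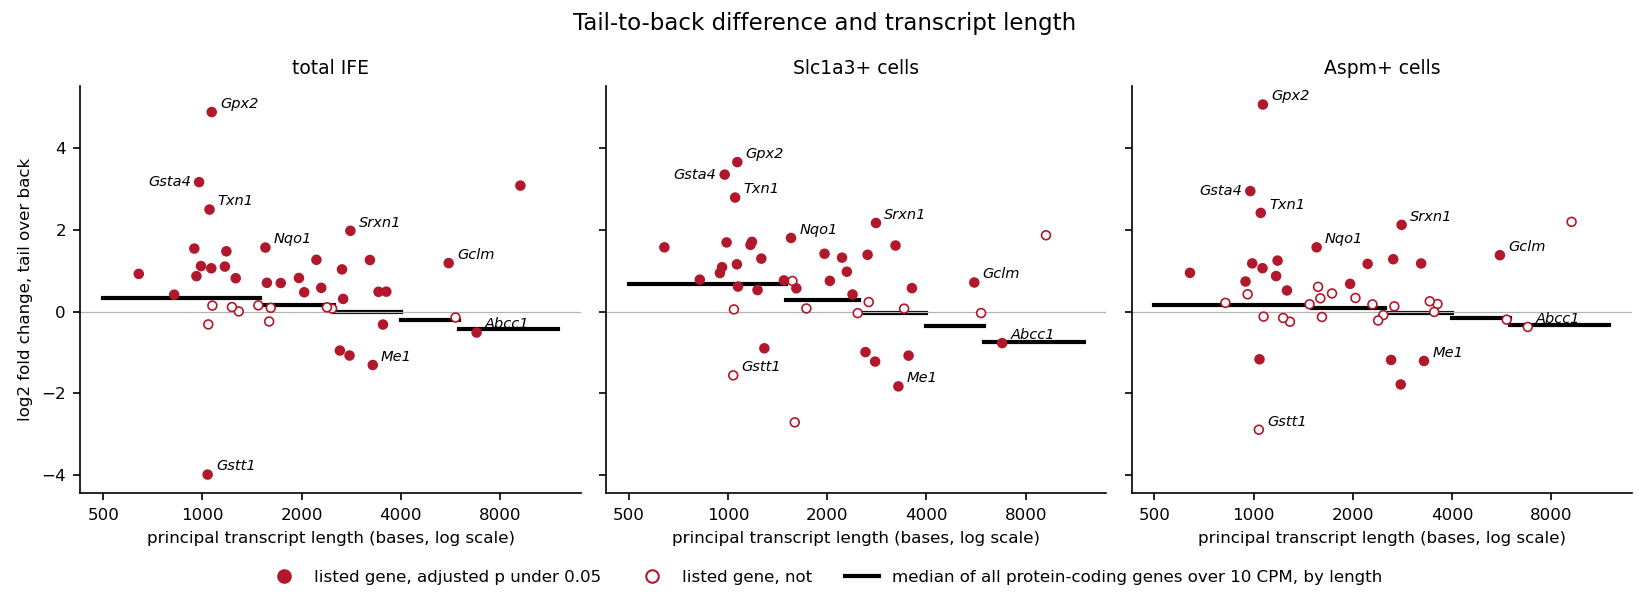
Log2 fold change between tail and back of the tested members (points, filled where they passed) against principal transcript length in bases on a log axis, in total IFE, Slc1a3+ cells and Aspm+ cells, with bars for the median of all tested protein-coding genes over 10 CPM in 5 length bins. In total IFE the bin medians fall with length to -0.43 over 6000 bases, and Txn1, Gpx2 and Gsta4 lie far above the bin that holds them.

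Cell makeup differed between the sites as well. In tail totals against back totals the tail scale keratin markers summed to 3112 to 4988 CPM against 1.54 to 6.49, the sebaceous markers to 472 to 631 against 164 to 377, and the hair follicle bulge and germ markers to 797 to 930 against 331 to 704. The basal keratinocyte markers summed to 74070 to 94290 CPM in tail totals against 41750 to 67220 in back totals, without overlap. Melanocyte markers summed to 15.7 to 21.3 CPM in tail totals against 3.68 to 7.30 in back totals, and fibroblast markers to 22.9 to 35.4 against 1.08 to 5.51. Neither pair of ranges overlapped. Of each list, 4 of 4 scale, 5 of 5 sebaceous, 6 of 7 bulge, 4 of 4 melanocyte and 2 of 5 fibroblast markers were higher in tail totals, and 4 of 5 Langerhans and T cell markers were lower (7.09 to 26.5 CPM summed in tail, 12.9 to 82.1 in back). Of 8 genes induced by tissue dissociation, 4 were lower in tail totals. These counts were the same without the back library that stood apart. In that fit 3 of 5 basal keratinocyte markers were higher in tail totals and 1 was lower. The part of these cells in the antioxidant differences was not tested, and in bulk libraries fewer cells of a type and less RNA per cell cannot be told apart.

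Other genes of the same pathways were read from a wider list. Of 84 further genes, 76 were tested, and 33 were higher and 10 lower in tail totals (34 and 11 without the back library that stood apart). Among them, haem and iron genes were higher in 4 of 6, glutathione genes in 10 of 24 with 3 lower, and thioredoxin genes in 4 of 7 with 1 lower. Txnrd3, a reductase for both thioredoxin and glutathione, had 124, 108, 128 and 118 CPM in the tail totals and averaged 34.0 CPM in back totals, without overlap (log2 fold change 1.81, edgeR adjusted p = 1.9e-11). Akr1b8, an aldo-keto reductase, averaged 58.1 CPM in tail totals and 10.3 in back totals (2.53, edgeR adjusted p = 3.0e-09). The exporters split, with Abcc3 at 111 CPM in tail totals against 15.1 in back totals (3.08) and Abcc5 at 143 against 344 (-1.28). Duox1, an oxidase that makes hydrogen peroxide, and its maturation factor Duoxa1 were both higher in tail, at 1.81 and 1.86. Msrb2, which repairs oxidised methionine in mitochondria, was lower, at 0.578 CPM in tail totals against 9.40 in back totals (-4.11, edgeR adjusted p = 5.2e-07). In Slc1a3+ cells 30 of these genes were higher and 13 lower, and in Aspm+ cells 21 and 5.

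The second comparison set labelled cells against the total IFE of the same line and site. In tail Slc1a3+ cells 2 members were lower and none higher, where 0.514% of all genes passed and 0.497% passed as lower. Gstm5 had 22.1 and 17.5 CPM in tail Slc1a3+ cells, against 78.5 and 56.4 CPM in the tail totals of that line. Aldh3a1 had 209 and 165 CPM in tail Slc1a3+ cells, against 623 and 396 CPM in the tail totals of that line. Neither gene overlapped, and the log2 fold changes were -1.77 for Gstm5 (SE 0.31, edgeR adjusted p = 0.00352) and -1.45 for Aldh3a1 (SE 0.31, edgeR adjusted p = 0.0234). Both calls were lost without total replicate 1 or labelled replicate 2, and 1 of the 2 without labelled replicate 1.

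No member passed edgeR's test in the other 5 populations. At an unadjusted p under 0.05 there were 6 of 43 members in back Slc1a3+ cells (988 of 17493 genes). Back Aspm+ cells had 1 (382 genes), back K14+ cells 1 (376), tail Aspm+ cells 0 (423) and tail Dlx1+ cells 4 (446). Of all genes, 0.109%, 0%, 0.00572%, 0.00572% and 0% passed the adjusted test in these 5 populations, in the same order. DESeq2 called 1 member among these 5, Gstm5 in tail Dlx1+ cells, and in tail Slc1a3+ cells it added Gstm1. A labelled library and the total of the same number deviated together in every line and site. In the back Slc1a3 line the correlations of these deviations were 0.184, 0.237 and 0.239. They lay within the range between different lines of the same site and gate, -0.153 to 0.349. A term for each pair added 4 calls. The added calls were Gstm1 in tail Slc1a3+ cells (-1.16, edgeR adjusted p = 0.0022), Aldh3a1 in back Slc1a3+ cells (-0.78, edgeR adjusted p = 0.0096), and Aldh3a1 (-0.78, edgeR adjusted p = 0.030) and Gstm5 (-1.34, edgeR adjusted p = 0.0021) in tail Dlx1+ cells. The labelled library was lower than its total in 14 of 14 pairs for Aldh3a1, at 0.335 to 0.874 of the total, and for Gstm5, at 0.282 to 0.986. Gstm1, whose library values were chosen after they were seen, was lower in 11 of 14 pairs, at 0.363 to 1.16 of the total.

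**Figure D4:**
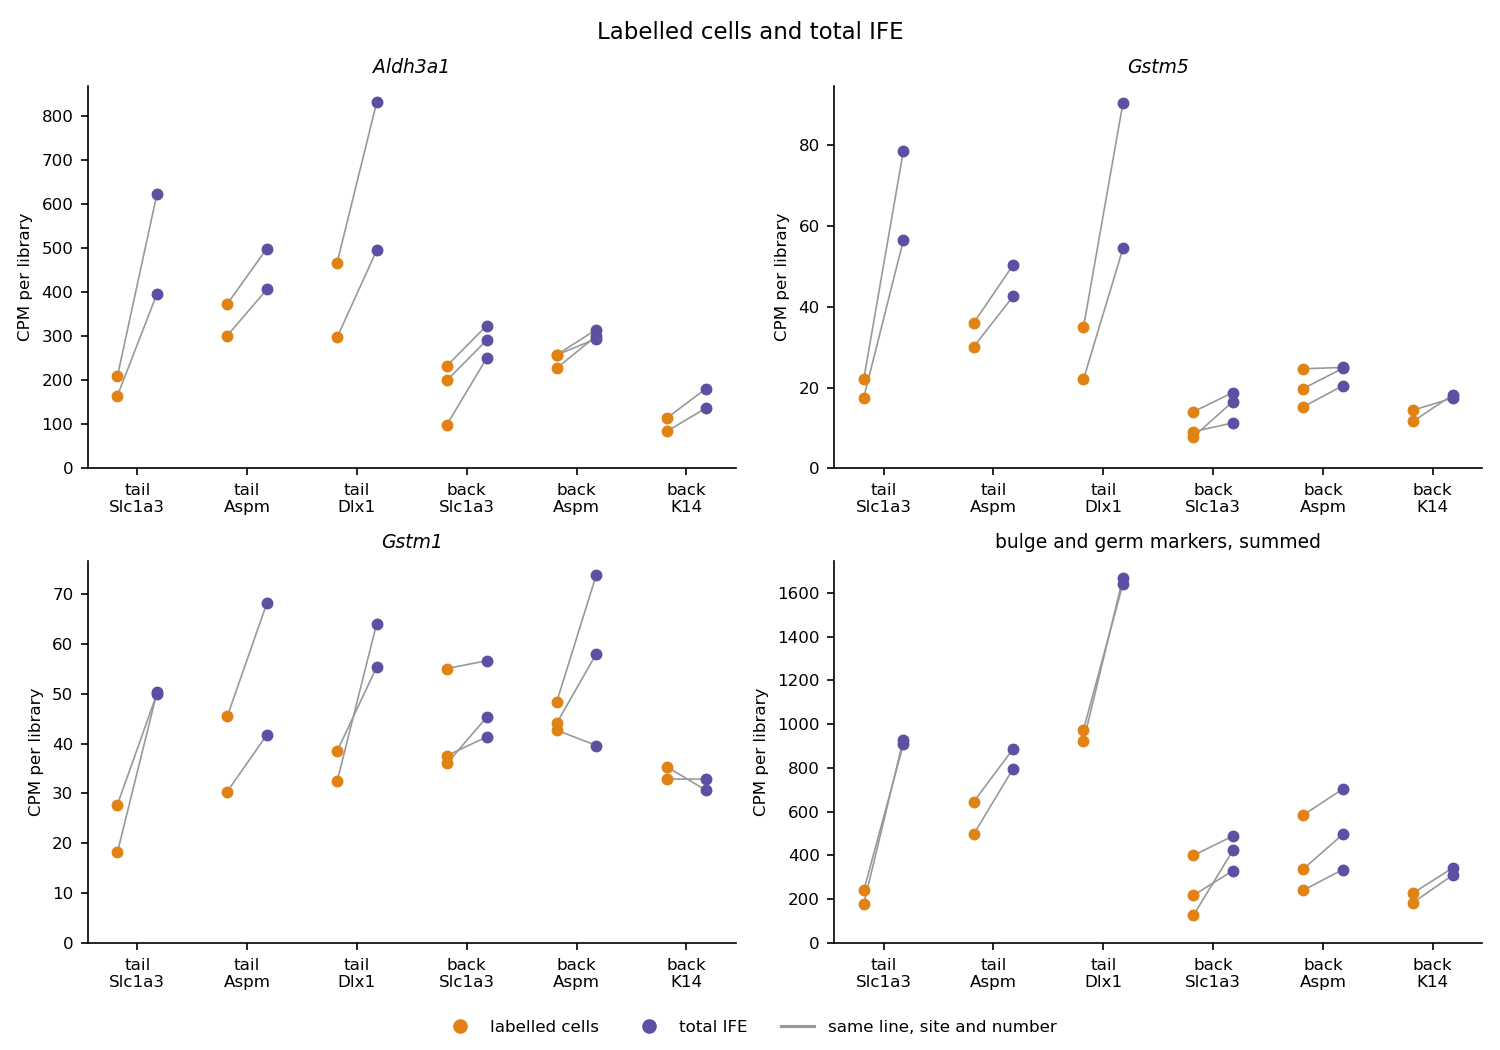
CPM of Aldh3a1, Gstm5 and Gstm1, and the summed CPM of the bulge and germ markers, in labelled cells (left of each pair) and in the total IFE of the same replicate, joined by a line, for each line and site. The labelled point lies below its total in all 14 pairs for Aldh3a1 and Gstm5 and in 11 for Gstm1.

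Beside these values, the bulge and germ markers summed to 178 and 240 CPM in tail Slc1a3+ cells, against 907 to 930 in the tail totals of that line. They were 922 to 975 CPM in tail Dlx1+ cells against 1642 to 1670 in their totals, and 497 to 645 CPM in tail Aspm+ cells against 797 to 888 in theirs. In back Slc1a3+ cells they summed to 126 to 400 CPM against 331 to 489, in back Aspm+ cells to 241 to 584 against 336 to 704, and in back K14+ cells to 185 to 228 against 310 to 343. The labelled sum lay below the total of the same number in 14 of 14 pairs, at 0.191 to 0.831 of it. Other marker sums shifted in these pairs too. The labelled sum was lower in 12 of 14 pairs for endothelium and for dissociation genes. It was lower in only 2 for basal, sebaceous and melanocyte markers, in 1 for suprabasal markers, and in 5 to 8 for the remaining lists. Only 2 of the 7 bulge and germ markers passed as lower in tail Slc1a3+ cells. The part of follicle or other cells in the Aldh3a1 and Gstm5 differences was not tested.

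The third comparison set the labelled populations against each other. In tail skin, Slc1a3+ cells had 10 members higher and 1 lower than Dlx1+ cells, where 5.47% of all genes passed (2.31% higher, 3.16% lower), with a member median of 0.44 against -0.05 for all genes. The higher ones were peroxide-removing enzymes (Prdx1, Prdx2, Prdx5, Prdx6, Gpx1 and Gpx4), Txn1, Sod1 and the pentose phosphate enzymes Tkt and Taldo1. Among tested protein-coding genes over 10 CPM, those under 1500 bases had a median of 0.485 here, and 17.5% of them were called higher. Over 6000 bases the median was -0.45, and 0.0822% were called higher. Prdx5, Gpx1, Gpx4, Txn1, Sod1 and Taldo1 are under 1500 bases. None of the 5 glutathione synthesis genes and none of the 8 transferase and efflux genes passed, although Gstm1 and Gstm5 did as lower once the length trend was removed.

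Prdx5 had 458 and 441 CPM in tail Slc1a3+ cells, against 230 and 193 CPM in tail Dlx1+ cells. Txn1 had 1087 and 822 CPM in tail Slc1a3+ cells, against 629 and 448 CPM in tail Dlx1+ cells. Taldo1 had 194 and 172 CPM in tail Slc1a3+ cells, against 119 and 98.7 CPM in tail Dlx1+ cells. The 2 populations did not overlap for any of these, with log2 fold changes of 1.09 for Prdx5 (SE 0.20, edgeR adjusted p = 0.00353), 0.82 for Txn1 (SE 0.22, edgeR adjusted p = 0.029) and 0.75 for Taldo1 (SE 0.15, edgeR adjusted p = 0.00752). The other 7 were higher by 0.59 to 0.86 on the log2 scale with edgeR adjusted p between 0.015 and 0.0498. Aldh3a1 was lower, at 209 and 165 CPM in tail Slc1a3+ cells against 467 and 297 CPM in tail Dlx1+ cells (-1.03, SE 0.31, edgeR adjusted p = 0.0493). The tail scale markers summed to 3958 to 6210 CPM in Slc1a3+ cells against 2240 to 2413 in Dlx1+ cells, the sebaceous markers to 576 to 687 against 272 to 321, and the bulge markers to 178 to 240 against 922 to 975. The basal markers summed to 111359 to 115902 CPM against 72773 to 83903, the melanocyte markers to 24.4 to 28.1 against 10.5 to 11, the fibroblast markers to 38.4 to 39.2 against 21.9 to 24.1, and the Langerhans and T cell markers to 19.5 to 20.9 against 4.93 to 6.32. None of these ranges overlapped between Slc1a3+ and Dlx1+ cells, and their part was not tested.

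The total IFE of the same 2 lines was compared in the same way. Prdx5 (1.01), Taldo1 (0.68), Gpx1 (0.75) and Tkt (0.63) were higher in Slc1a3 totals than in Dlx1 totals, where 1.92% of all genes passed (0.978% as higher). Of the tested protein-coding genes over 10 CPM with transcripts under 1500 bases, 7.47% were called higher between these totals. With the total of each line subtracted, 0 members passed. With the length trend removed, 5 were higher and 3 lower, and 6 of the 11 calls were kept; Gpx1, Gpx4, Sod1, Taldo1 and Txn1 were lost, and Gstm1 (-0.97, edgeR adjusted p = 0.0421) and Gstm5 (-0.99, edgeR adjusted p = 0.0247) were gained as lower. Leaving out 1 library moved the count as well, to 1 without Slc1a3+ replicate 1, 6 without Slc1a3+ replicate 2, 5 without Dlx1+ replicate 1, 0 without Dlx1+ replicate 2, and 13 without the back total that stood apart, which enters through the shared estimate of spread.

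**Figure D5:**
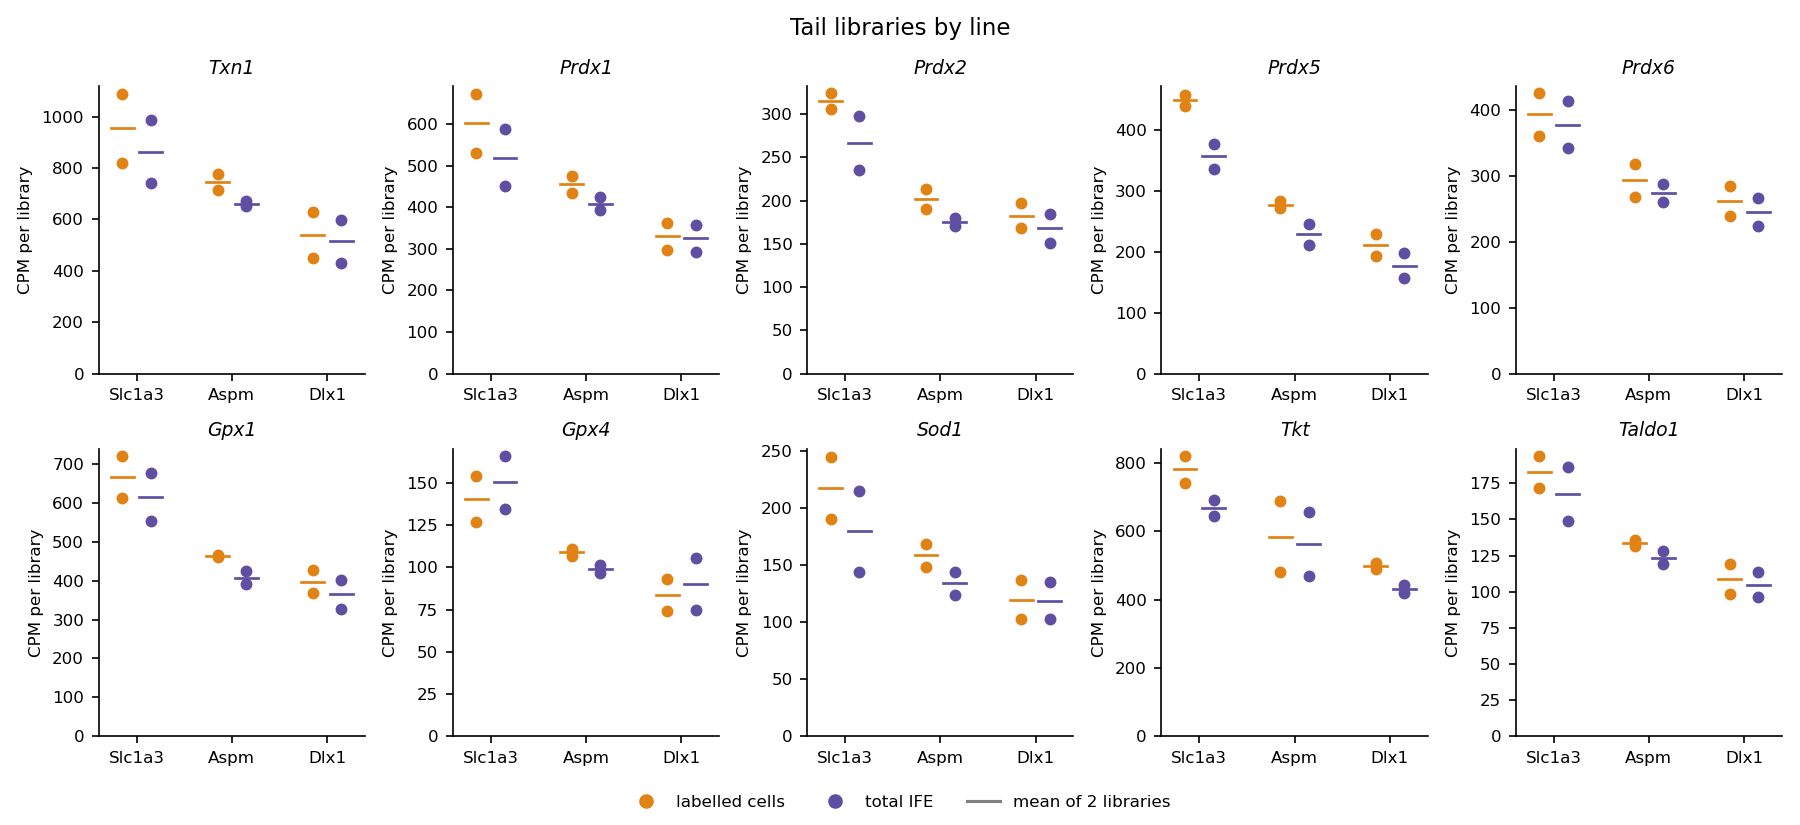
CPM of the 10 members that were higher in tail Slc1a3+ than in tail Dlx1+ cells, in labelled cells and total IFE of the 3 tail lines, on axes that start at 0, with each point a library and each bar the mean of 2. Prdx5 lies at 441 and 458 CPM in Slc1a3+ cells and at 193 and 230 in Dlx1+ cells, and its totals lie at 337 and 378 CPM in the Slc1a3 line and at 157 and 198 in the Dlx1 line.

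No member passed edgeR's test between tail Slc1a3+ and Aspm+ cells (0.492% of all genes passed), where DESeq2 called Prdx2 and Prdx5. None passed between tail Aspm+ and Dlx1+ cells (0 by DESeq2, 0.0915% of all genes passed). None passed between back Slc1a3+ and Aspm+ cells (0.16% of all genes passed), where DESeq2 called Gstm5. At an unadjusted p under 0.05 the first comparison had 15 of 43 members and 2030 of 17493 genes. The next had 5 members and 983 genes, and the last 7 members and 1584 genes. A missed threshold with 2 or 3 libraries a group does not show that these populations are alike.

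In back skin the K14 line served as the population labelled through the general basal promoter. Its total IFE had 3 members higher than the totals of the Slc1a3 and Aspm lines, where 2.13% of all genes passed (1.35% as higher). Taldo1 averaged 206 CPM in K14 totals and 134 in the other totals (0.63, edgeR adjusted p = 0.0132), Prdx1 507 and 313 (0.72, edgeR adjusted p = 0.0255), and Gpx4 112 and 67.7 (0.75, edgeR adjusted p = 0.0328). K14+ cells had 1 member higher than Slc1a3+ and Aspm+ cells, Taldo1 at 196 CPM against 138 (0.51, edgeR adjusted p = 0.0495), where 0.532% of all genes passed (0.246% as higher). Both counts rested on single libraries. The 3 for total IFE became 0 without either K14 total, 1 without Aspm total replicate 2, 5 without Slc1a3 total replicate 2 and 7 without Slc1a3 total replicate 4. The 1 for labelled cells became 0 without either K14+ library, Slc1a3+ replicate 4 or Aspm+ replicate 1 or 2, 2 without Aspm+ replicate 4, and 4 without the back Slc1a3 total that stood apart. The Taldo1 call itself was lost in 12 of 17 alternative fits, also without Slc1a3+ replicate 2, where 1 other member passed as lower. With the length trend removed Taldo1 passed in neither. Each line was a separate set of mice, so line and driver cannot be told apart here.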

How the data were processed

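The deposited values were whole-number counts of reads per gene, 1 table per library, which the authors made with Trim Galore 0.6.0, cutadapt, FastQC, STAR 2.7.0e and the builds GRCm38 and mm10, per the submitters' processing notes, which also name DESeq2 1.26.0. RNA was taken in TRIzol and poly(A) libraries were made with a non-directional kit, per the labels' protocols, so reads of overlapping and antisense genes cannot be told apart. The counting program, its annotation and its settings are not given in the sources used here.

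The counts were fitted with edgeR 4.0.16 (limma 3.58.1, R 4.3.3) in 1 quasi-likelihood model of all 28 libraries with 1 mean for each of 12 groups, trimmed-mean scaling and a minimum count of 10 in edgeR's filter. This left 17493 genes, 16 residual degrees of freedom. The coefficient of variation between replicates beyond counting error was 0.28. P-values were adjusted over all genes tested (Benjamini-Hochberg, two-sided, threshold 0.05), and a gene that passed is called higher or lower. CPM are counts per 1000000 counts after scaling. DESeq2 1.42.0 was run as an alternative. The code was tested on simulated data. The share of a gene's 50-base transcript words found in other genes was counted with matches on either strand of those genes. Intervals of count ratios cover counting error only.

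The members and all gene lists were chosen with earlier results of these data known. All 44 members could be named. Library values are given for up to 25 members with the lowest adjusted p, for the member of each role with the highest level per kilobase and for the one with the largest site difference. Of the other pathway genes, up to 10 that passed were named per comparison. Within a line and site, a labelled library and the total of the same replicate number deviated together, with correlations of 0.184 to 0.705 over 10844 genes in 14 of 14 pairs. These are 10 separate correlations, since the 4 sets with 2 libraries a gate give the same value for both numbers. Those numbers were taken to pair the libraries. Across the sites of a line, 3 of 8 correlations in the same gate were over 0.1 (-0.0819 to 0.353). With the other gate 3 of 8 were (-0.0473 to 0.421). Between lines they were -0.153 to 0.349 in the same site and gate and -0.34 to 0.323 otherwise. The back Slc1a3 pairs of labelled and total, at 0.184 to 0.239, lay within these ranges. The numbers were not taken to pair libraries across sites or lines.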

Additional observations from a re-analysis of the deposited data

How the results depend on the processing

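Over 1626 checks of 104 calls of single genes, 1424 kept their direction and their side of the threshold, 195 kept their direction without passing, and 7 reversed. Of the 195, 113 came from leaving out 1 library. The reversed values were all small. For Gstp1 in total IFE, tail against back, the log2 fold change was -0.022 with the length trend removed and -0.12 with length and GC removed. In Slc1a3+ cells with length and GC removed it was -0.055 for Gpx1, -0.052 for Gstp1 and -0.030 for Taldo1. Between tail Slc1a3+ and Dlx1+ cells with each line's total subtracted it was -0.037 for Prdx6 and -0.0086 for Gpx1.

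Leaving out single libraries gave 28 to 34 members for total IFE between sites, 21 to 33 for Slc1a3+ cells, 14 to 22 for Aspm+ cells, 0 to 2 for tail Slc1a3+ cells against their total, 0 to 13 for tail Slc1a3+ against Dlx1+ cells, 0 to 7 for K14 totals and 0 to 4 for K14+ cells. With all 3 tail totals against all 3 back totals, 22 members were higher and 8 lower. Sqstm1, Hmox1, Gsr, Prdx1 and Gstp1 then did not pass, with log2 fold changes of 0.17 to 0.28 (edgeR adjusted p = 0.057 to 0.55). Taldo1 (-0.25, edgeR adjusted p = 0.014) and Gpx8 (-0.54, edgeR adjusted p = 0.0078) were gained as lower. With length and GC removed the site counts were 24 higher and 9 lower in total IFE, 22 and 5 in Slc1a3+ cells, and 17 and 6 in Aspm+ cells.

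Counts outside 1.5 times the reported one were as follows, and the cause was not tested. Without the low-count filter, 1 member passed in back Slc1a3+ cells against their total, 2 in tail Dlx1+ cells, 2 between back Slc1a3+ and Aspm+ cells, 1 between tail Slc1a3+ and Aspm+ cells, 2 between tail Aspm+ and Dlx1+ cells, and 7 for K14 totals. DESeq2 gave 1 in tail Dlx1+ cells, 1 between back Slc1a3+ and Aspm+ cells, 2 between tail Slc1a3+ and Aspm+ cells, 9 for K14 totals and 3 for K14+ cells. Fits of only the groups compared gave 4 between tail Slc1a3+ and Aspm+ cells, 3 between tail Aspm+ and Dlx1+ cells, and 0 for both K14 comparisons. Scaling by library totals gave 6 between tail Slc1a3+ and Dlx1+ cells, subtracting totals gave 0 there, and DESeq2's size factors gave 0 for K14+ cells. Removing length, with or without GC, gave 1 between tail Slc1a3+ and Aspm+ cells, and with GC 2 for K14+ cells.

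With the replicate block, 1 member passed in back Slc1a3+ cells against their total, 2 in tail Dlx1+ cells and 1 in the interaction of the Slc1a3 line, and with block and length removal together 2, 3 and 1. Where numbers were not taken to pair the libraries, the block gave 1 between back Slc1a3+ and Aspm+ cells, 1 between tail Slc1a3+ and Aspm+ cells, 6 for K14 totals and 2 for K14+ cells, and 32, 33 and 25 for total IFE, Slc1a3+ and Aspm+ cells between sites. The length, GC and combined adjustments were chosen after seeing the data.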
